A study of Mus musculus with 16 samples.

Results

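The methionine cycle and transsulfuration enzymes are the 10 genes Mtr, Mtrr, Mat2a, Mat2b, Ahcy, Ahcyl1, Ahcyl2, Mtap, Cbs and Cth, taken by symbol from the 23284 genes counted in mouse lung tumors. The set was listed by pathway and gene family and not by a rule on measured values, though earlier results of these data were known. All 10 symbols were found. RNA was sequenced from 9 tumors labelled Max -/- (Max null) and 7 tumors labelled wild type (Max wild-type), all from lungs of mice of the strains 129/SvJ and C57BL/6. Both groups carry the same RP background and received the same agent, an adenovirus with Cre recombinase (Ad.CMV.Cre) given into the trachea to delete genes. The CMV promoter is not restricted to one cell type. The labels do not spell out RP, which elsewhere stands for floxed Rb1 plus floxed Trp53, the basis of a mouse small cell lung cancer model. They give no age, and whether each tumor had its own mouse is not said, so every p-value measures the spread between these samples, which may in part be technical.

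The methionine cycle turns methionine into S-adenosylmethionine (SAM), the methyl donor for DNA, RNA, histones and small molecules. After a methyl group is given away, S-adenosylhomocysteine (SAH) is hydrolysed to homocysteine, which is either remethylated to methionine with a folate-borne methyl group or passed through transsulfuration towards cysteine and glutathione. A side branch salvages methionine from methylthioadenosine, a by-product of polyamine synthesis. MAX is the DNA-binding partner of the MYC proteins and of several repressors, and its dimers bind the E-box CACGTG.

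Libraries held 8.66 to 15.11 M reads in genes in Max null tumors and 9.15 to 13.2 M in Max wild-type tumors (12.3 ± 2.07 M, SD, n = 9, against 10.8 ± 1.38 M, n = 7; two-sided exact permutation p = 0.119). The groups differed in where reads fell. Reads aligned to more than 1 place in the genome made up 10.8% ± 0.818 of reads in Max null tumors (9.17% to 11.8%) and 16.01% ± 3.95 in Max wild-type tumors (12.3% to 22.2%), with no overlap (two-sided exact permutation p = 8.74e-05). The highest shares were 16.01%, 20.8% and 22.2% in Max wild-type tumors 2, 4 and 7, so calls are also given without these 3 tumors. The rows that name no gene, which include those reads, made up 30.8% ± 1.18 of reads in Max null and 39.1% ± 4.78 in Max wild-type tumors (exact permutation p = 0.000175). Levels are given in CPM, counts per M reads in genes, with library sizes scaled by edgeR's TMM factors. Max itself measured 64.2 to 83.5 CPM in Max null tumors and 52.4 to 75.9 CPM in Max wild-type tumors. It showed no decrease in the tumors labelled Max null (log2 difference 0.18 ± 0.11, SE, edgeR quasi-likelihood adjusted p = 0.281). Counts over the whole gene do not show whether part of it was deleted, so they do not check the labels. The neuroendocrine character of the tumors was checked with 8 markers, among them Chga and Calca. All 8 were detected in every tumor, with a summed level of 3840 to 7780 CPM in Max null tumors and 4270 to 26500 CPM in Max wild-type tumors, and edgeR's test called none (3 at an unadjusted p under 0.05; DESeq2 called 1 higher and 1 lower, limma-voom none). Among 34 tested markers in 9 lists for other cell types of the lung, edgeR's test called none higher (3 at an unadjusted p under 0.05; DESeq2 called 2 and limma-voom 1) and 1 lower, the macrophage gene Cd68 (17.8 ± 6.04 CPM in Max null and 31.8 ± 7.95 CPM in Max wild-type tumors; log2 difference −0.83 ± 0.23, adjusted p = 0.0252). The 5 macrophage markers counted summed to 49.3 to 107 CPM in Max null and 70.4 to 100 CPM in Max wild-type tumors, none of them at 0 in any tumor, and their part in the results below was not tested. In bulk tumor RNA, fewer cells of a type and less RNA per cell cannot be told apart.

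Of the 10 genes, 4 were higher in Max null tumors at a Benjamini-Hochberg adjusted p under 0.05 in edgeR's quasi-likelihood test. They were Mtr, Mat2b, Ahcyl2 and Cth. Ahcyl1 alone of the 10 was lower. Mtrr, Mat2a, Ahcy, Mtap and Cbs did not pass the test. The background is broad: 7.4% of the 14825 genes tested were called higher in Max null tumors and 8.64% were called lower. The median log2 difference, Max null minus Max wild-type, was 0.51 over the 10 genes and −0.03 over all genes tested, and 9 of the 10 values were above 0. At an unadjusted p under 0.05, 7 of the 10 genes passed, as did 32.8% of all tested genes. Without Max wild-type tumors 2, 4 and 7, none of the 10 genes passed the adjusted threshold in edgeR's test, 6 passed at an unadjusted p under 0.05 (19.6% of all tested genes did), and only 0.805% and 0.871% of 15276 tested genes were called higher and lower.

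**Figure D1:**
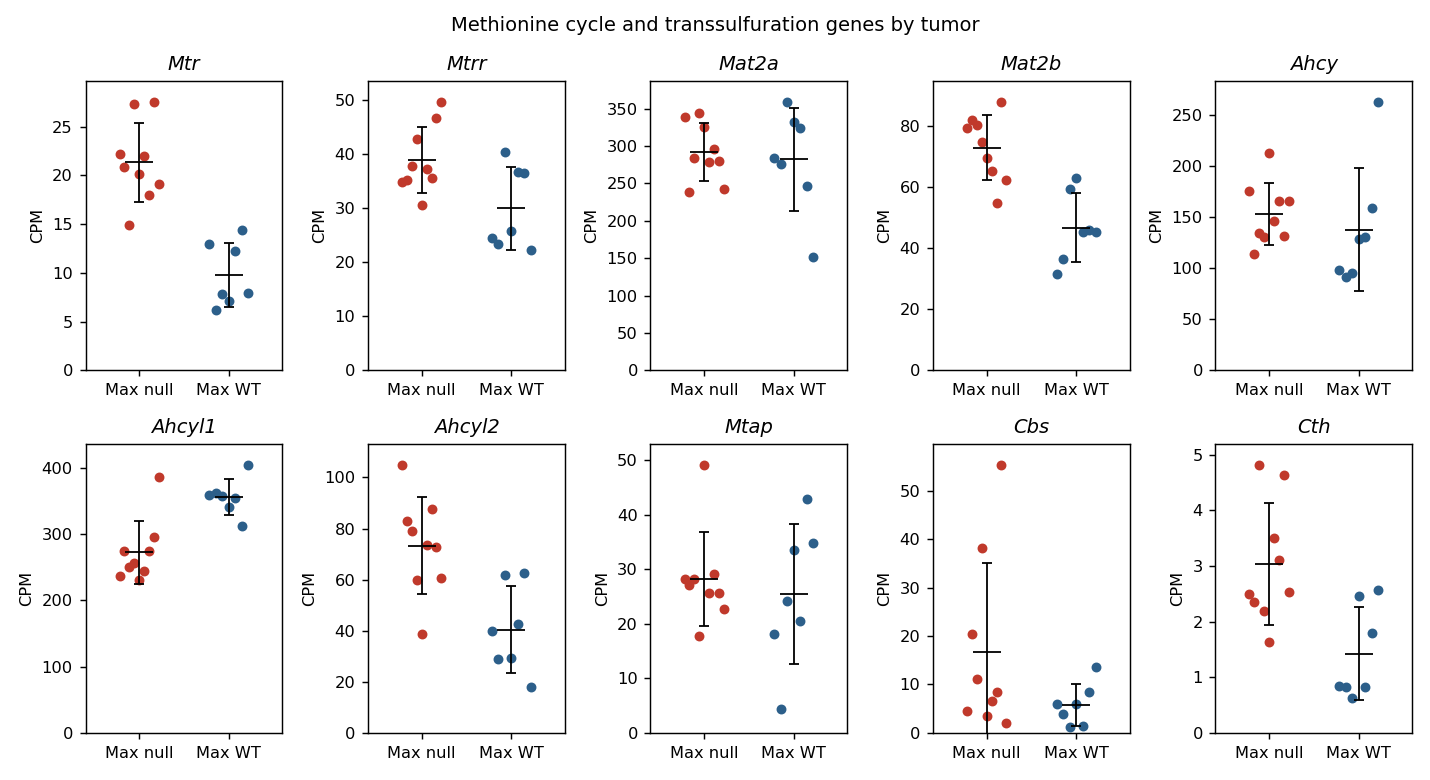
Level of each gene in every tumor, in CPM on an axis that starts at 0, with Max null tumors on the left and Max wild-type tumors on the right. Points are tumors, and bars give the mean and SD (n = 9 and n = 7). Mtr is the 1 gene whose groups do not overlap (14.9 to 27.5 CPM in Max null and 6.20 to 14.4 CPM in Max wild-type tumors).

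The promoters of 2 of the genes are shown because Mtr had the clearest difference of the set and Cbs was the only one of the 9 genes with a promoter window to hold CACGTG. Sequences come from RefSeq promoter windows on build GRCm38.p6, each covering 250 bases before and 50 bases after an annotated start, and both genes lie on the minus strand. The windows are chr13:12258064-12258363 for Mtr and chr17:31637156-31637455 for Cbs. Letters are lower case, and capitals mark CACGTG.
Mtr: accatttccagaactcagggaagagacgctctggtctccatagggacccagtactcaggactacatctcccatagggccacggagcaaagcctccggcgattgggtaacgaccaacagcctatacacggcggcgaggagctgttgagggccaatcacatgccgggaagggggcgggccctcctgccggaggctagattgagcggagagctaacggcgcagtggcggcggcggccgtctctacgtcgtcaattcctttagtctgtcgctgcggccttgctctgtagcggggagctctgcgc
Cbs: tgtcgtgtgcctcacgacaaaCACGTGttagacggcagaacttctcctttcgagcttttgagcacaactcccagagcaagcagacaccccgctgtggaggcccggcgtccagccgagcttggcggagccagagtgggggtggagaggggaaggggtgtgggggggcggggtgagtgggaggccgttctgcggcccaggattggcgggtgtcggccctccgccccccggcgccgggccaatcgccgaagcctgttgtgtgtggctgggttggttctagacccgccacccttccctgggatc
The RefSeq table held 14 windows for 9 of the 10 genes. Cth had none. Both strands were searched for CACGTG, which reads the same on either strand, and for TGATGNAA, the form of site that ATF4 with a C/EBP partner binds; no matches of the 2 motifs overlapped. CACGTG occurred in 1 of the 14 windows, that of Cbs, beginning 229 bases before the start, against 7.15% of all 32851 windows in the table. TGATGNAA occurred in none of the 14 windows, against 3.97% of all windows. A match describes letters only, and the Cbs transcript itself did not pass the test between the groups, as described below.

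Remethylation of homocysteine is carried out by methionine synthase, encoded by Mtr, which takes the methyl group from methyltetrahydrofolate and uses cobalamin. Its lowest, median and highest levels were 14.9, 20.9 and 27.5 CPM in Max null tumors. In Max wild-type tumors the lowest, median and highest values were 6.20, 7.96 and 14.4 CPM. Every one of the 9 Max null tumors stood above every Max wild-type tumor. The groups did not overlap, in either direction, for 1.56% of all tested genes. The means were 21.3 ± 4.09 CPM in Max null (SD, n = 9) and 9.80 ± 3.27 CPM in Max wild-type tumors (n = 7), with a log2 difference of 1.12 ± 0.22 (SE; edgeR quasi-likelihood adjusted p = 0.00548). The 3 Max wild-type tumors with the highest multiply aligned share lay at 6.20 to 7.96 CPM, and the other 4 at 7.83 to 14.4 CPM. Without those 3 the log2 difference was 0.85 ± 0.22 (adjusted p = 0.0617).

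Mtrr encodes methionine synthase reductase, which restores the oxidised cobalamin of the MTR protein. Its lowest, median and highest levels were 30.5, 37.2 and 49.5 CPM in Max null tumors and 22.25, 25.7 and 40.4 CPM in Max wild-type tumors. The groups overlapped, with 3 of 9 Max null tumors above every Max wild-type tumor. The log2 difference of 0.38 ± 0.17 did not pass (adjusted p = 0.122). The ratio of Mtr to Mtrr within a tumor does not depend on how libraries are scaled. Like the other ratios, it was not adjusted for transcript length or for the multiply aligned share. As a log2 ratio of CPM it averaged −0.87 ± 0.29 in Max null and −1.62 ± 0.46 in Max wild-type tumors, or geometric ratios of 0.548 and 0.325. The difference of 0.75 passed a two-sided exact permutation test over all 11440 splits of the tumors into 9 and 7 (p = 0.00149; adjusted over the 4 ratios tested, 0.00297). In Max null tumors, 6 of 9 ratios lay above every ratio of the Max wild-type tumors.

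SAM is made by methionine adenosyltransferase. Mat2a encodes the catalytic subunit found outside the liver, and Mat2b encodes a regulatory subunit that binds it. Mat2a was among the most abundant of the 10 transcripts and overlapped between the groups. Its lowest, median and highest levels were 239, 283 and 344 CPM in Max null tumors and 152, 284 and 358 CPM in Max wild-type tumors. The log2 difference was 0.05 ± 0.16 (adjusted p = 0.858), and its sign turned in several alternative fits, so no direction is given.

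Mat2b was higher in Max null tumors. It had lowest, median and highest levels of 55.0, 74.8 and 87.9 CPM in Max null tumors and 31.5, 45.3 and 63.1 CPM in Max wild-type tumors. The groups overlapped slightly, with 7 of 9 Max null tumors above every Max wild-type tumor. Mat2b averaged 73.0 ± 10.7 CPM in Max null and 46.7 ± 11.4 CPM in Max wild-type tumors, a log2 difference of 0.64 ± 0.16 (edgeR quasi-likelihood adjusted p = 0.0144). Without Max wild-type tumors 2, 4 and 7 the log2 difference was 0.68 and the adjusted p was 0.0622. The log2 ratio of Mat2a to Mat2b averaged 2.001 ± 0.28 in Max null and 2.58 ± 0.46 in Max wild-type tumors, so that catalytic-subunit CPM exceeded regulatory-subunit CPM by geometric ratios of 4.0 in Max null and 5.98 in Max wild-type tumors. The difference of −0.58 passed the exact permutation test (p = 0.00953, or 0.0127 adjusted over the 4 ratios). The ratios overlapped between the groups, at 1.54 to 2.42 in Max null and 1.74 to 3.17 in Max wild-type tumors. Only 2 of 9 Max null ratios lay below every Max wild-type ratio.

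**Figure D2:**
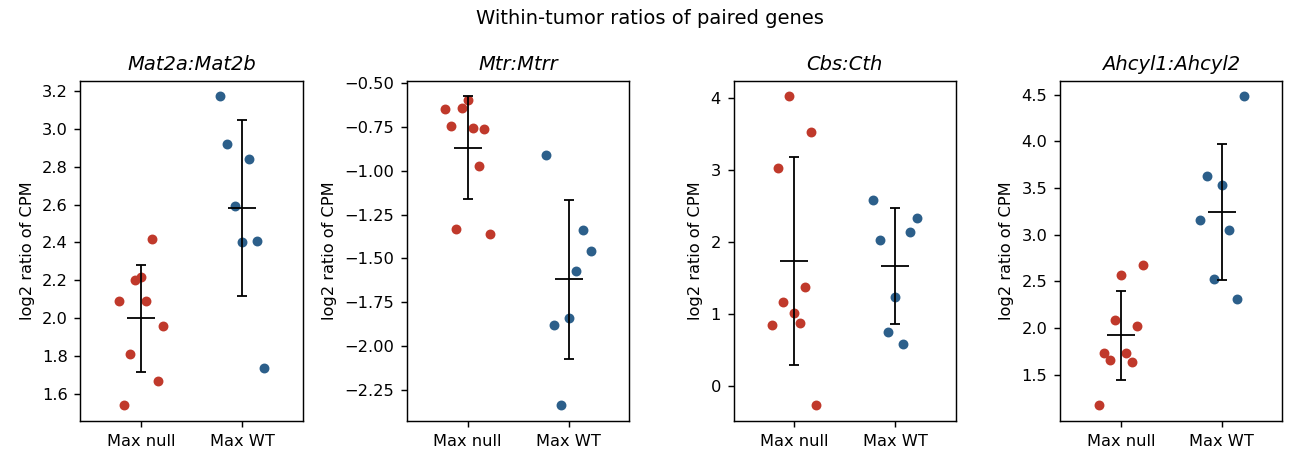
Within-tumor log2 ratios of CPM for 4 gene pairs, with Max null tumors on the left and Max wild-type tumors on the right of each panel. Points are tumors, bars give the mean and SD (n = 9 and n = 7), and the axes do not start at 0. The groups overlap in every panel. Their means differ by the exact permutation test in all panels but Cbs:Cth, where the means are 1.73 in Max null and 1.66 in Max wild-type tumors.

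SAH is hydrolysed by the enzyme encoded by Ahcy. Ahcy had lowest, median and highest levels of 114, 147 and 213 CPM in Max null tumors and 91.1, 129 and 262 CPM in Max wild-type tumors. The highest value of all 16, 262 CPM, came from Max wild-type tumor 7, a rank that depends on the TMM scaling. Before scaling, that tumor had 1946 Ahcy reads in 9.93 M, and Max null tumor 5 had 1830 in 8.66 M. The groups overlapped (log2 difference 0.15 ± 0.21, edgeR quasi-likelihood adjusted p = 0.65). The log2 difference was 0.38 without Max wild-type tumor 7 (adjusted p = 0.132), 0.07 without tumor 2 (adjusted p = 0.852), 0.68 with the multiply aligned percentage as covariate (adjusted p = 0.25) and 0.61 with 3 surrogate variables (adjusted p = 0.0613). Ahcy counts are uncertain, because 77.0% of the 50-base stretches of its transcript also occur in transcripts of 4 other genes, and reads aligned to more than 1 place were not counted.

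Ahcyl1 and Ahcyl2 encode proteins related to SAH hydrolase. AHCYL1, also called IRBIT, binds the IP3 receptor and several ion transporters, and neither protein is known for hydrolysing SAH. The 2 genes moved in opposite directions. Ahcyl1 had lowest, median and highest levels of 231, 256 and 385 CPM in Max null tumors and 312, 358 and 404 CPM in Max wild-type tumors. In 8 of 9 Max null tumors Ahcyl1 lay below every Max wild-type tumor, and the exception was Max null tumor 9, which held the 385 CPM. The means were 272 ± 47.3 CPM in Max null and 355 ± 27.4 CPM in Max wild-type tumors, and the log2 difference of −0.39 ± 0.13 passed only narrowly (edgeR quasi-likelihood adjusted p = 0.0478). It was called in 2 of the 16 fits that leave out 1 tumor, and without Max wild-type tumors 2, 4 and 7 the log2 difference was −0.35 (adjusted p = 0.199). Ahcyl1 was also the steadiest of the 10 genes in Max wild-type tumors, with a coefficient of variation of 7.72%, against a median of 40.6% over all tested genes in that group.

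Ahcyl2 had lowest, median and highest levels of 38.8, 73.6 and 105 CPM in Max null tumors and 17.9, 40.0 and 62.7 CPM in Max wild-type tumors. The groups overlapped, with 6 of 9 Max null tumors above every Max wild-type tumor. Ahcyl2 averaged 73.3 ± 18.9 CPM in Max null and 40.5 ± 16.9 CPM in Max wild-type tumors (log2 difference 0.86 ± 0.25, edgeR quasi-likelihood adjusted p = 0.0294). Max wild-type tumors 2, 4 and 7 held the 3 lowest of the 16 values, 17.9 to 29.3 CPM. Leaving out any one of them, or Max null tumor 1 or 7, ended the call, with log2 differences of 0.72 to 0.82 and adjusted p-values just above 0.05 and up to 0.0616, and without all 3 the log2 difference was 0.50 (adjusted p = 0.234). The log2 ratio of Ahcyl1 to Ahcyl2 averaged 1.92 ± 0.47 in Max null and 3.24 ± 0.73 in Max wild-type tumors, or geometric ratios of CPM of 3.79 and 9.46. The difference of −1.32 passed the exact permutation test (p = 0.000699; adjusted over the 4 ratios, 0.0028), and 7 of 9 Max null ratios lay below every Max wild-type ratio. Without Max wild-type tumors 2, 4 and 7 it was −0.84 (exact permutation p adjusted over the 4 ratios, 0.0186). The 2 genes were called in opposite directions in the same tumors, so their ratio is not separate support for those calls.

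Mtap encodes methylthioadenosine phosphorylase, the entry to methionine salvage, and in people it lies beside CDKN2A and is often lost with it in tumors. Mtap had lowest, median and highest levels of 17.8, 27.1 and 49.1 CPM in Max null tumors and 4.33, 24.1 and 43.0 CPM in Max wild-type tumors. The highest value was in Max null tumor 5 and the lowest in Max wild-type tumor 2, and the groups overlapped. The log2 difference was 0.14 ± 0.32 (adjusted p = 0.792) and −0.04 without Max wild-type tumor 2.

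Transsulfuration has 2 steps. Cystathionine beta-synthase, encoded by Cbs, joins homocysteine to serine, and cystathionine gamma-lyase, encoded by Cth, releases cysteine. Cbs was the most variable of the 10 genes, with lowest, median and highest levels of 2.08, 8.37 and 55.3 CPM in Max null tumors and 1.17, 5.90 and 13.6 CPM in Max wild-type tumors. Max null tumors 8, 4 and 2, at 55.3, 38.2 and 20.4 CPM, stood above every Max wild-type tumor, and the other 6 Max null tumors fell within the Max wild-type range. The coefficient of variation was 110% in Max null and 75.5% in Max wild-type tumors, against medians over all tested genes of 28.6% in Max null and 40.6% in Max wild-type tumors. The means, 16.7 ± 18.4 CPM in Max null and 5.77 ± 4.36 CPM in Max wild-type tumors, gave the largest log2 difference of the 10 genes, 1.54, with the largest SE, 0.68 (adjusted p = 0.123). Without Max null tumor 8 it was 1.04.

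Cth was the least abundant of the set, with 7 to 66 reads in a tumor. A count of 7 reads has an exact 95% Poisson interval of 2.81 to 14.4 reads, for counting error only. Its lowest, median and highest levels were 1.63, 2.54 and 4.81 CPM in Max null tumors and 0.630, 0.842 and 2.56 CPM in Max wild-type tumors. The groups overlapped, with 4 of 9 Max null tumors above every Max wild-type tumor. Cth averaged 3.03 ± 1.10 CPM in Max null and 1.42 ± 0.838 CPM in Max wild-type tumors, and the log2 difference of 1.10 ± 0.37 passed narrowly (edgeR quasi-likelihood adjusted p = 0.0474). The call held in 3 of the 16 fits that leave out 1 tumor. Without Max wild-type tumors 2, 4 and 7, of which 4 and 7 held the highest Max wild-type values, the log2 difference was 1.56 and the adjusted p was 0.0617. The log2 ratio of Cbs to Cth averaged 1.73 ± 1.44 in Max null and 1.66 ± 0.80 in Max wild-type tumors, a difference of 0.07 that did not pass the exact permutation test (p = 0.91; adjusted over the 4 ratios, also 0.91).

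**Figure D3:**
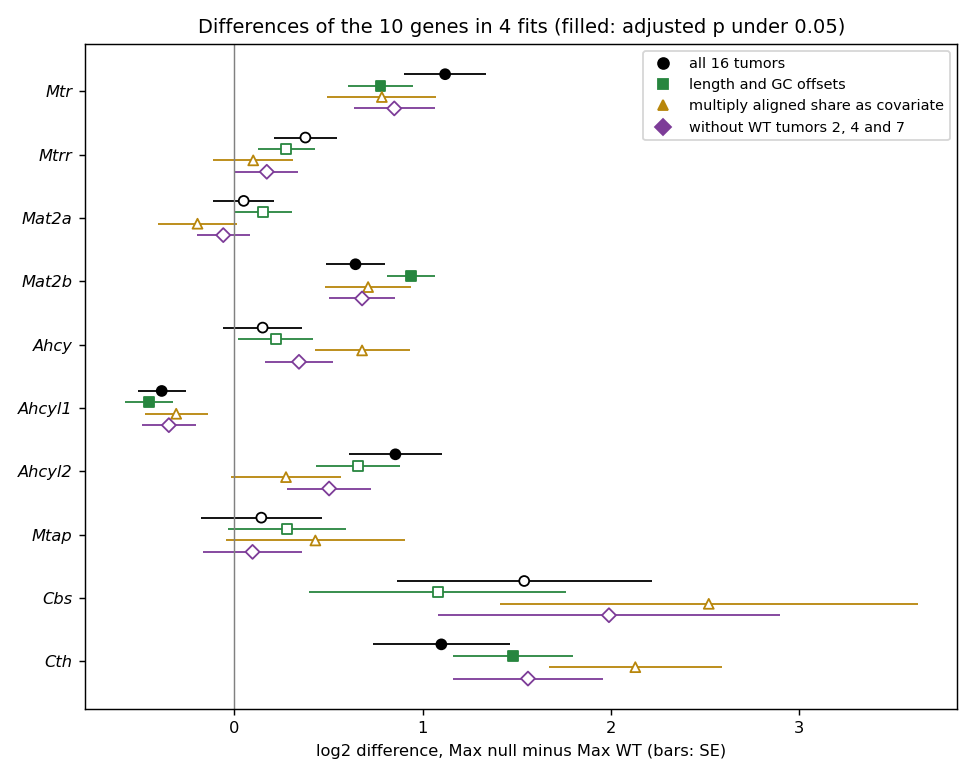
Log2 difference of each gene, Max null minus Max wild-type, with its SE, in 4 edgeR fits. Filled symbols have an adjusted p under 0.05: with all 16 tumors these are Mtr, Mat2b, Ahcyl1, Ahcyl2 and Cth, and with the multiply aligned percentage as covariate, or without Max wild-type tumors 2, 4 and 7, there are none.

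Library composition moved with these calls, and its part in them was not tested, since the multiply aligned share did not overlap between the groups. With that share as a covariate, none of the 10 genes passed in edgeR's test. At an unadjusted p under 0.05, 5 passed, as did 13.6% of all tested genes. These were Mtr, Mat2b and Cth, and also Ahcy and Cbs, which were not called in the main fit. Ahcyl1 and Ahcyl2 did not pass unadjusted. The log2 differences were then 0.78 for Mtr (adjusted p = 0.25) and 0.71 for Mat2b (adjusted p = 0.197). For Ahcyl1 the value was −0.31 (adjusted p = 0.439), for Ahcyl2 it was 0.28 (adjusted p = 0.72), and for Cth it was 2.13 (adjusted p = 0.107). Transcript length and GC content were handled by offsets fitted in each tumor. Under these the calls of Mtr (log2 difference 0.78, adjusted p = 0.0117), Mat2b (0.94, adjusted p = 0.00131), Ahcyl1 and Cth (1.48, adjusted p = 0.0103) stood, and Ahcyl2 missed the threshold (0.66, adjusted p = 0.0684). The Mtr transcript is 8294 bases long and that of Mat2b 2053 bases, against a median of 3128 bases over the tested genes.

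**Figure D4:**
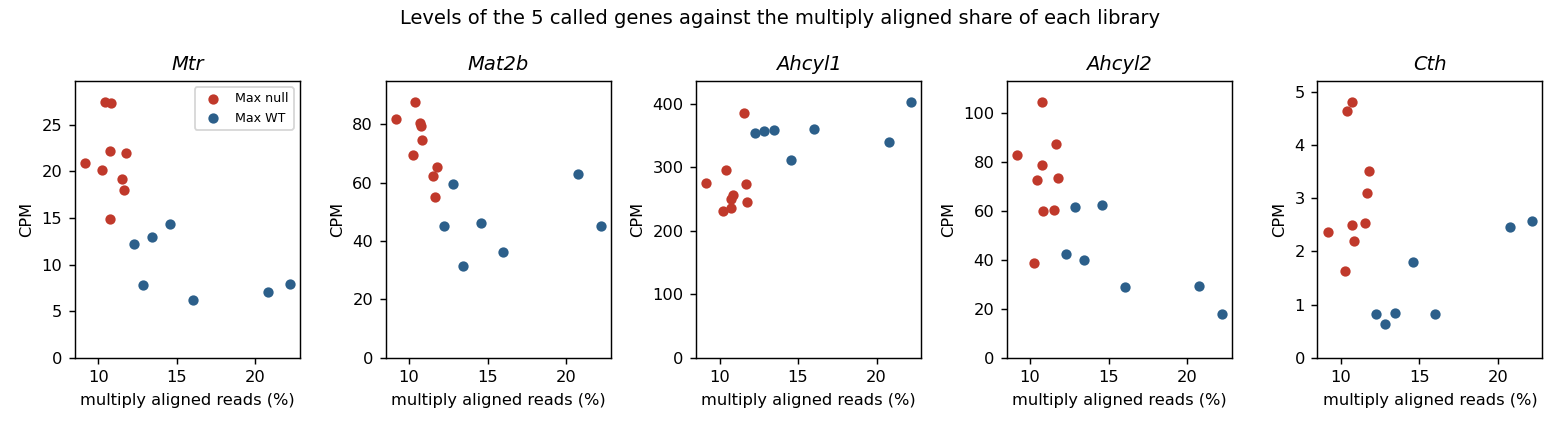
Level of the 5 called genes in CPM against the percentage of reads aligned to more than 1 place, 1 point per tumor (red, 9 Max null; blue, 7 Max wild-type). The groups occupy separate ranges on the horizontal axis, 9.17% to 11.8% in Max null and 12.3% to 22.2% in Max wild-type tumors.

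Levels per length differed widely between the genes, and the order of their means was not the same in both groups. In CPM per kb of the longest coding transcript, the means in Max null tumors were 86.2 for Mat2a, 70.4 for Ahcyl1, 60.2 for Ahcy and 35.6 for Mat2b. They were then 14.2 for Ahcyl2, 10.1 for both Mtap and Mtrr, 2.68 for Cbs, 2.57 for Mtr and 1.67 for Cth. Only the neighbours Ahcy and Mat2b, and Mat2b and Ahcyl2, did not overlap in range. Cbs, though higher in mean, exceeded Mtr in only 3 of 9 Max null tumors. In Max wild-type tumors the order began with Ahcyl1 at 92.0 CPM per kb, ahead of Mat2a at 83.3, Ahcy at 54.2, Mat2b at 22.8 and Mtap at 9.11. It went on with Ahcyl2 at 7.85, Mtrr at 7.74, Mtr at 1.18, Cbs at 0.927 and Cth at 0.783 CPM per kb. Only Ahcy and Mat2b, and Mtrr and Mtr, did not overlap. Ahcyl1 exceeded Mat2a in 4 of 7 Max wild-type tumors, Mtap exceeded Ahcyl2 in 3 of 7, and Ahcyl2 exceeded Mtrr in 3 of 7.

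Correlations between the 10 genes went both ways. Over the 16 tumors, with each group's mean removed from log2 CPM, the Pearson correlations of the 45 pairs ranged from −0.53 to 0.617, and the tumors share their libraries' depth and composition. Ahcy and Mtap had the highest value, 0.617 (0.654 within the 9 Max null and 0.617 within the 7 Max wild-type tumors). Mtrr and Ahcyl2 followed at 0.58, but with 0.04 within Max null and 0.864 within Max wild-type tumors. The transsulfuration pair Cbs and Cth had 0.551 (0.374 within Max null and 0.797 within Max wild-type tumors). Mat2a and Ahcy had the lowest, −0.53, with 0.432 within Max null and −0.83 within Max wild-type tumors. The rank (Spearman) correlation of this pair over the 16 tumors was only −0.209. In TMM-scaled CPM, Max wild-type tumor 7 held both the lowest Mat2a level (152 CPM) and the highest Ahcy level (262 CPM) of all 16 tumors. The sign for this pair differed between the groups, but that difference was not tested. Among 12496 genes averaging 5 CPM or more, the 5 most like Mtr in this measure were Tnpo1 (0.896), Uhmk1 (0.887), Eya3 (0.885), Fancm (0.869) and Gtf3c1 (0.865). Their transcripts are 8453, 7864, 5186, 7775 and 6961 bases long, all above the median of the tested genes.

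The surrounding pathway was described with 59 further genes in 7 lists, of which 55 were tested, 5 were higher and 3 were lower in Max null tumors, shares near the 7.4% and 8.64% of all tested genes. All differences in this account are log2, Max null minus Max wild-type, with SE, and adjusted p-values are from edgeR's quasi-likelihood test. The median log2 difference of each list is set beside −0.03 over all genes.

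Of 12 genes that supply folate methyl groups and cobalamin, 1 was higher and 1 lower (median 0.17). DESeq2 called 2 higher and 1 lower in this list, and limma-voom called 3 higher and 0 lower. Mthfd1, a cytosolic enzyme that interconverts folate one-carbon units, averaged 104 ± 29.2 CPM in Max null and 51.8 ± 12.8 CPM in Max wild-type tumors (1.01 ± 0.20, adjusted p = 0.00577). Mmadhc, which guides cobalamin to its enzymes, averaged 58.3 ± 8.84 CPM in Max null and 79.7 ± 20.4 CPM in Max wild-type tumors (−0.45 ± 0.15, adjusted p = 0.0495). Its call held in 4 of the 16 fits that leave out 1 tumor.

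Of 6 genes listed for methionine import, 3 were higher (median 0.73). Slc3a2 (0.40), Slc43a1 (−0.33) and Slc38a2 (−0.16) did not pass. Slc7a5, a carrier of large neutral amino acids also known as LAT1, had 127 ± 38.5 CPM in Max null and 60.8 ± 42.0 CPM in Max wild-type tumors (1.06 ± 0.33, adjusted p = 0.0393). The Slc7a5 call held in 6 of the 16 fits that leave out 1 tumor. Slc43a2, or LAT4, had 63.5 ± 37.5 CPM in Max null and 28.7 ± 9.14 CPM in Max wild-type tumors (1.15 ± 0.33, adjusted p = 0.027). Slc7a8, or LAT2, had 9.47 ± 4.91 CPM in Max null and 3.998 ± 1.07 CPM in Max wild-type tumors (1.24 ± 0.34, adjusted p = 0.0221). All 3 called carriers overlapped between the groups.

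Of 5 genes for SAM transport and for methylation of Mat2a mRNA, 1 was higher and 1 lower (median 0.06). Slc25a26, which carries SAM into mitochondria, measured 9.38 to 15.5 CPM in Max null and 4.09 to 8.45 CPM in Max wild-type tumors, without overlap (1.01 ± 0.21, adjusted p = 0.00649). In the reference annotation 7.23% of its exon bases overlap Lrig1 on the opposite strand. Ythdc1, a nuclear reader of methylated adenosine in RNA, averaged 115 ± 14.5 CPM in Max null and 167 ± 21.8 CPM in Max wild-type tumors (−0.54 ± 0.12, adjusted p = 0.00994). Mettl16, the enzyme that methylates Mat2a mRNA, measured 38.6 ± 9.79 CPM in Max null and 36.9 ± 12.1 CPM in Max wild-type tumors and did not pass (0.06 ± 0.21, adjusted p = 0.86).

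Of 10 methyltransferases that act on small molecules, 1 was lower (median −0.12) and none was higher by edgeR, DESeq2 or limma-voom, adjusted or unadjusted. Tpmt, which methylates thiopurines, averaged 6.16 ± 2.31 CPM in Max null and 15.0 ± 5.37 CPM in Max wild-type tumors (−1.28 ± 0.29, adjusted p = 0.0106).

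In 3 lists neither edgeR's test nor DESeq2 or limma-voom called a gene. They were the 4 tested liver-type and alternative cycle enzymes (median 0.15), the 6 tested genes of methionine salvage and the polyamine branch (median 0.13) and the 12 genes of cysteine use (median −0.15). In the last list Ethe1 was lower at an unadjusted p under 0.05 in edgeR's test (−0.83 ± 0.345, adjusted p = 0.104). DESeq2 passed 1 higher and 1 lower gene of that list unadjusted. Adk, which clears the adenosine released from SAH, had 57.7 ± 16.4 CPM in Max null and 49.6 ± 14.0 CPM in Max wild-type tumors, and Adal, of the same list, had 21.4 ± 3.76 CPM in Max null and 23.8 ± 8.25 CPM in Max wild-type tumors. Adi1, a salvage enzyme, had 111 ± 35.1 CPM in Max null and 115 ± 67.1 CPM in Max wild-type tumors. Sms, which makes spermine, had 81.0 ± 29.9 CPM in Max null and 64.1 ± 26.2 CPM in Max wild-type tumors. Ado, a thiol dioxygenase, had 102 ± 25.1 CPM in Max null and 120 ± 36.4 CPM in Max wild-type tumors. Gclc, which makes the first bond of glutathione, had 86.0 ± 7.89 CPM in Max null and 88.6 ± 26.4 CPM in Max wild-type tumors. Betaine-homocysteine methyltransferase, a liver and kidney route from homocysteine to methionine, was close to absent, with a mean of 0.201 CPM for Bhmt in Max null and 0.0646 CPM in Max wild-type tumors. Bhmt2 was listed at 0 in every tumor. Without Max wild-type tumors 2, 4 and 7, edgeR's test called 1 gene of these lists, Ythdc1 (−0.61, adjusted p = 0.028). The other log2 differences were then 1.12 for Slc43a2 (adjusted p = 0.161), 1.28 for Slc7a8 (0.13), 0.74 for Slc7a5 (0.282), 0.91 for Mthfd1 (0.0535) and 0.93 for Slc25a26 (0.0511). They were −1.21 for Tpmt (adjusted p = 0.0813) and −0.26 for Mmadhc (0.311).

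**Figure D5:**
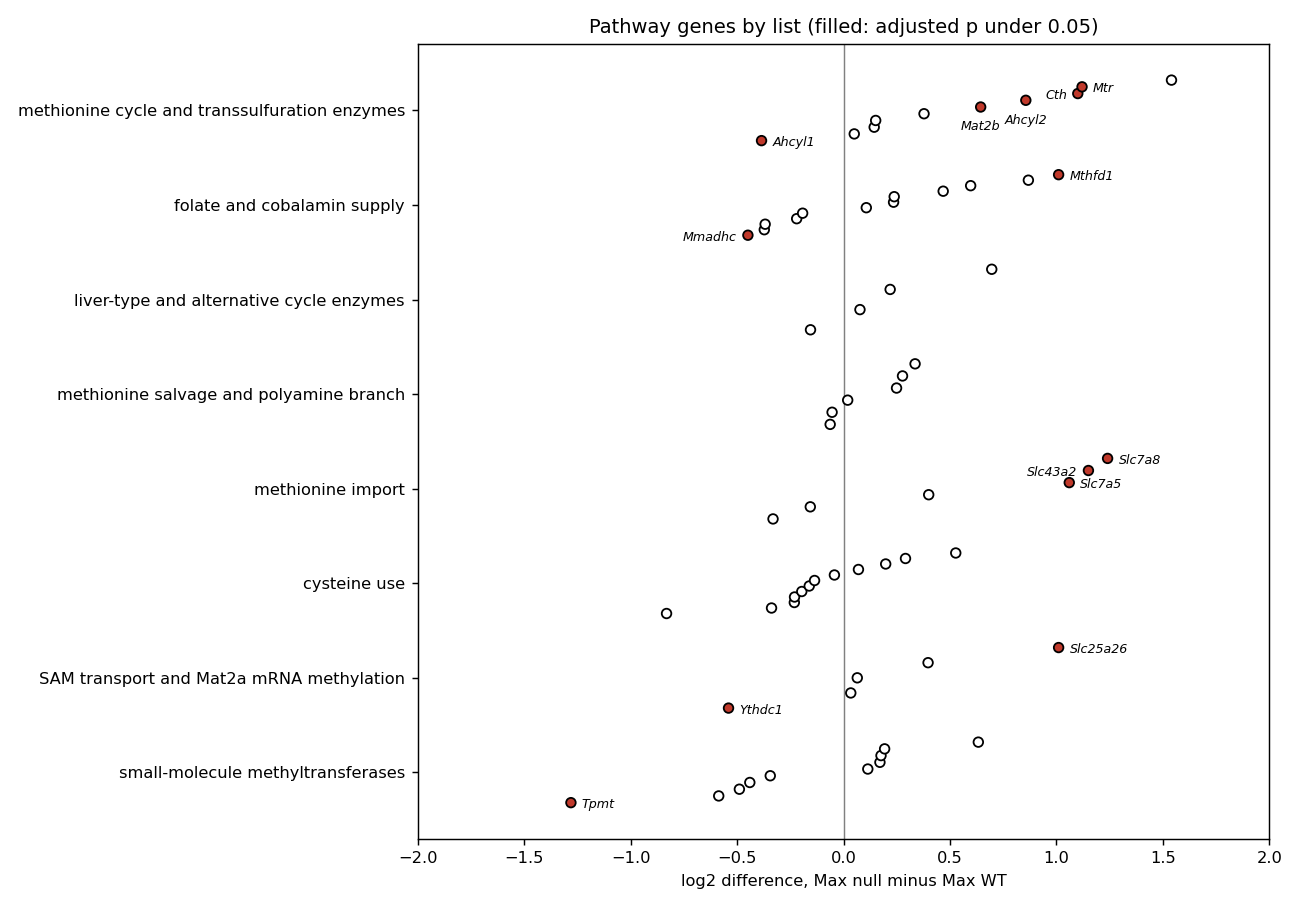
Log2 difference, Max null minus Max wild-type, of every tested gene of the methionine cycle and transsulfuration set and of the 7 surrounding lists, 1 point per gene. Filled points, named beside them, have an adjusted p under 0.05. The filled points lie right of 0 for methionine import (3 of 6) and left of 0 for small-molecule methyltransferases (1 of 10).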

How the data were processed

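Each tumor has 1 deposited file of read counts, whole numbers over 23284 gene symbols. Tools listed in the submitters' processing notes, without roles, are HTSeq 0.6.1, TopHat2 2.0.12, TopHat and bcl2fastq 1.8.4, and the build is mm9; the annotation, strandedness and read filters behind the counts were not given in the sources used here. Per the labels' protocols, total RNA from a TRIZOL extraction went into the libraries. Rows that name no gene, 29.2% to 32.9% of reads in Max null and 32.8% to 45.6% in Max wild-type tumors, stayed out of library sizes and tests. No 2 files agreed within sampling noise (smallest chi-square 32.8 per degree of freedom).

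Groups came from the labels. The main test was edgeR 4.0.16's quasi-likelihood F test (R 4.3.3) with TMM factors on the 14825 genes that passed filterByExpr, with Benjamini-Hochberg adjustment over all of them at 0.05. CPM were computed with TMM-scaled library sizes, and log2 CPM for ratios and correlations has a prior count of 2. Alternatives were other size factors, DESeq2 1.42.0, limma-voom (limma 3.58.1), other filters, a replicate block, the multiply aligned share as a covariate, length and GC offsets, 3 surrogate variables (sva 3.50.0), and leaving out tumors. The fit of tumors 1 to 7 without the block was chosen after seeing the data.

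The 10 genes and the other lists were chosen with earlier results of these data known. Named genes are the 10, then from each other list every called gene up to the 4 with the smallest p, or the 2 with the highest mean where none was called, and the 5 genes most like Mtr. Bhmt, Bhmt2, Mettl16, Slc3a2, Slc43a1, Slc38a2 and Ethe1 were named after their values were seen. Lengths come from a GRCm38 annotation and promoters from RefSeq, so no coordinates of the counted genes on mm9 are given. Some single results are not reported here.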

Additional observations from a re-analysis of the deposited data

Results flagged for a closer look

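In 3 of 28 groups of values (10 genes and 4 ratios, each in both groups of tumors), the highest or lowest tumor stood apart from the others of its group by Dixon's test at the 95% level, which chance alone does in about 1 of 20 groups. Ahcyl1 measured 385 CPM in Max null tumor 9, above the other Max null tumors. Mtap measured 49.1 CPM in Max null tumor 5. Ahcy measured 262 CPM in Max wild-type tumor 7, the library with the highest share of multiply aligned reads (22.2%). The value uses the TMM-scaled library size. The part of that scaling and of the multiply aligned share in it was not tested.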

How the results depend on the processing

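Of the 10 genes, 5 were called with all 16 tumors, 2 to 4 when 1 tumor was left out, 3 with no filter on low counts and 2 with 3 surrogate variables, and 0 in edgeR's test with the multiply aligned percentage as covariate and 0 without Max wild-type tumors 2, 4 and 7. Mtr and Mat2b kept their calls in all 16 fits that leave out 1 tumor, with log2 differences of 1.03 to 1.24 for Mtr and 0.57 to 0.73 for Mat2b, and in both scalings, DESeq2 and limma-voom. Ahcyl1 and Cth did not keep theirs in most of these 16 fits. The 8 calls in the surrounding lists numbered 6 to 10 when 1 tumor was left out and 1 without Max wild-type tumors 2, 4 and 7. Mat2a turned in sign with limma-voom (−0.00286), the multiply aligned covariate (−0.20), 3 surrogate variables (−0.16) and without Max wild-type tumors 2, 4 and 7 (−0.0581), and ranged over −0.0655 to 0.118 when 1 tumor was left out. Mtap ranged over −0.0425 to 0.324 and the Cbs to Cth ratio over −0.21 to 0.32 in such fits. The other 3 ratios kept direction and call under other prior counts, without each tumor and without Max wild-type tumors 2, 4 and 7, the alternatives run for them, over −0.75 to −0.48 for Mat2a to Mat2b, 0.63 to 0.87 for Mtr to Mtrr and −1.48 to −0.84 for Ahcyl1 to Ahcyl2. Cth gave no value under the filter of 5 CPM in 7 tumors. The causes were not tested.

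Tumor numbers are not stated to pair the samples. Deviations of same-numbered tumors correlated at −0.17 to 0.24 over 7 pairs, and 0 of 7 Max wild-type tumors correlated best with their own number. So few pairs cannot decide whether any tumors were paired. With the number as a replicate block in tumors 1 to 7 of each group, 0 of the 10 genes were called in edgeR's test (5 at an unadjusted p under 0.05, as for 24.5% of all genes), against 3 without the block in the same tumors, a fit chosen after seeing the data. Depth limits Cth most, at 7 to 66 reads.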

Other observations

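Mtap lies next to Cdkn2a and Cdkn2b in the reference annotation, and these neighbours were looked at after the Mtap values were seen. In Max wild-type tumor 2, where Mtap had 37 reads (4.33 CPM), Cdkn2a measured 114 CPM and Cdkn2b 15.0 CPM. The other 6 Max wild-type tumors held 18.1 to 43.0 CPM of Mtap, 134 to 598 CPM of Cdkn2a and 3.98 to 39.1 CPM of Cdkn2b. Max null tumors held 17.8 to 49.1 CPM of Mtap, 89.0 to 233 CPM of Cdkn2a and 3.14 to 28.2 CPM of Cdkn2b. The Cdkn2a and Cdkn2b levels of Max wild-type tumor 2 thus lay within the Max null ranges. Counts over a whole gene do not show whether part of it was lost, and no copy number was measured.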
